A study of Mus musculus with 9 samples.

Results

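Fibroblast growth factor 9 (Fgf9), the 4 FGF receptor tyrosine kinases (Fgfr1 to Fgfr4) and 5 genes that report or restrain FGF signalling (Etv4, Etv5, Spry2, Spry4 and Dusp6) were followed across 3 kinds of fetal mouse gonad. The 10 genes were picked by name and matched to mouse gene IDs, and all 10 were among the 15300 genes of the deposited tables. RNA was sequenced from gonads freed of mesonephros at E13.5 (days after conception), with 3 samples in each group. XY-KO samples were testes of genotype XY AMH-Cre; Sox9flox/flox, in which Cre recombinase driven by the AMH promoter deletes Sox9 in Sertoli cells. XX-WT samples were ovaries (XX Sox9flox/flox wildtype) and XY-WT samples were testes (XY Sox9flox/flox wildtype), so both control groups carried the floxed alleles too, and all animals were C57BL/6. The AMH promoter is active in Sertoli cells once these are specified, so the model removes Sox9 after testis fate has been set, and only in the cells the promoter reaches. Whether a sample held the gonads of 1 fetus or of several is not stated in the labels. The p-values rest on the spread between samples, which may be partly technical, and on variance that limma shares across genes.

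FGF9 is a secreted ligand made by the supporting cells of the early testis. In mice it is needed to keep Sox9 on in XY gonads, it opposes the ovarian signal WNT4, and it acts on germ cells, where it holds back entry into meiosis. FGFR2 is the receptor through which mouse Sertoli cell fate depends on FGF9. Receptors bind FGF together with heparan sulfate chains and signal through RAS and the kinases RAF, MEK and ERK. The ETS transcription factors ETV4 and ETV5 are switched on by that cascade and serve as its readout. SPRY2, SPRY4 and the ERK phosphatase DUSP6 are induced by it as well and feed back to dampen it.

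Because SOX9, ETV4 and ETV5 are transcription factors, the DNA just before the start of 4 of these genes is shown, to let the letters each factor family prefers be read beside the expression values. Fgf9 is the ligand, Etv5 and Dusp6 differed between XX-WT and XY-WT, and Spry2 was called in none of the comparisons. The sequences are RefSeq's for GRCm38.p6, on the strand of the gene, from the bases before its first listed RefSeq start. They are chr14:58072436-58072685 (+) for Fgf9, chr16:22439720-22439820 (-) for Etv5, chr14:105896820-105897069 (-) for Spry2 and chr10:99262981-99263230 (+) for Dusp6. Each holds the 250 bases up to the start, except that of Etv5, which holds 101 because the 149 bases nearest the start are exonic in another transcript. Capitals mark ACAAT or ACAAAG, letters that SOX proteins bind, or CCGGAA, letters that ETS proteins bind, on either strand.
Fgf9: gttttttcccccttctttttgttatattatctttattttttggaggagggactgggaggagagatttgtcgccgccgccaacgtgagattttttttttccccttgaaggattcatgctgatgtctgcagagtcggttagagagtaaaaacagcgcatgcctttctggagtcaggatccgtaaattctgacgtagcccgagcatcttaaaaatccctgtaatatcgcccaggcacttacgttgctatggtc
Etv5: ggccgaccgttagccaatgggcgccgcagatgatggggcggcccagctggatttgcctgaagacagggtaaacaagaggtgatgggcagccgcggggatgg
Spry2: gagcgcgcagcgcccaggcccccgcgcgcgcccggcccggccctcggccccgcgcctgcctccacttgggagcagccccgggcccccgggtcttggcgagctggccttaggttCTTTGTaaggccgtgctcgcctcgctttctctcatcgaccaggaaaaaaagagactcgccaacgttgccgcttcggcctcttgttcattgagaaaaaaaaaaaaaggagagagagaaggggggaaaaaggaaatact
Dusp6: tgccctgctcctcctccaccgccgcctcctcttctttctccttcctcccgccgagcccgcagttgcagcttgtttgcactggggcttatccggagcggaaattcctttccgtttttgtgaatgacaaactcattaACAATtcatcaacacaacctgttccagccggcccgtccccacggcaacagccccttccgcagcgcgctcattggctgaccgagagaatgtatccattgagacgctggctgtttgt
The Dusp6 sequence holds ACAAT with its first base 115 bases before the start, and the Spry2 sequence holds ACAAAG on the other strand (read as CTTTGT) at 137 bases before the start. Windows of 300 bases (250 before the start and 50 after it) were searched on both strands for 7 of the 10 genes. ACAAT was in 2 of the 7 (Fgfr2 and Dusp6), against 31.6% of the first listed promoters of 27025 genes. The Fgfr2 window may not be a promoter of the annotated gene, since 0 of its 27 transcripts in GENCODE M21 contain the 50 bases after that RefSeq start. ACAAAG was in 1 of the 7 (Spry2), against 18.7% of promoters, and ACAATGG, which contains ACAAT, was in 0 of the 7, against 3.71%. These counts use the first listed promoter of each gene, and a second one listed for Etv5 holds ACAAAG with its first base 3 bases before that start. That second window too may not be a promoter of the annotated gene, since 0 of 5 Etv5 transcripts contain the 50 bases after its start. CCGGAA was in 2 of the 7 (Fgfr4 and Spry2, where the Spry2 match lies 34 bases after the start), against 15.2%. A match describes letters in this window and is not a binding site, and a window without a match says nothing about the factor. The Fgf9 window lies inside the annotated gene, downstream of the outermost start in GENCODE M21, and only 1 of the 4 annotated transcripts contains the 50 bases after the RefSeq start.

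Sox9 and markers of cell types were read first. The sign of Sox9 had helped to set the direction of each comparison, so its values are no check of the labels. The log2 fold change of Sox9 in the authors' deposited table was -2.76 in XY-KO (SE 0.17, adjusted p 8.93e-07) and -4.47 in XX-WT (SE 0.22, adjusted p 2.06e-09), each against XY-WT. Sox9 was not absent from XY-KO: its derived level was 13.2 CPM in XY-KO, 4.02 CPM in XX-WT and 89.4 CPM in XY-WT, and the authors' deposited table put XY-KO above XX-WT by 1.71 (SE 0.24, adjusted p 8.14e-05). Of 8 Sertoli cell markers, which include the deleted Sox9, 7 were lower in XY-KO and 8 in XX-WT than in XY-WT. The levels derived for them summed to 195 CPM (read counts scaled to library size) in XY-KO, 21.8 CPM in XX-WT and 544 CPM in XY-WT. None of 7 pre-granulosa markers was called in XY-KO, and their summed level was 42.0 CPM in XY-KO, 364 CPM in XX-WT and 32.7 CPM in XY-WT. All 4 measured fetal Leydig markers (summed level 602, 21.3 and 612 CPM in the order XY-KO, XX-WT and XY-WT) and 6 of 7 interstitial markers (759, 334 and 775 CPM) were lower in XX-WT than in XY-WT. Germ cell markers summed to 345 CPM in XY-KO, 622 CPM in XX-WT and 431 CPM in XY-WT, with 1 of 7 lower in XY-KO and 4 of 7 higher in XX-WT. Endothelial markers summed to 159, 153 and 165 CPM and mesonephric markers to 12.1, 22.2 and 14.6 CPM in the same order. In XX-WT against XY-WT, 1 of 5 endothelial markers was higher and 2 lower, and 4 of 5 mesonephric markers were higher and 1 lower. None of either list was called in XY-KO against XY-WT. The lowest derived level of a marker was that of Amh in XX-WT, at -4.30 log2 CPM. Counts are not given, so whether any of its reads were counted there is unknown. The part of any change in cell composition in the results on FGF genes was not tested.

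All values for single genes are group values, because the tables hold no per-sample columns. Fold changes, p-values and adjusted p-values are the authors' limma results, and a gene is called higher or lower where the adjusted p (Benjamini-Hochberg, over all 15300 genes) is under 0.05. Standard errors (SE) were taken from the authors' t, and group levels in log2 CPM were derived from the authors' mean and fold changes, with the SE that the 3 comparisons imply for each group. Whether single samples of the groups overlap cannot be read from such values.

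None of the 10 genes was called between XY-KO and XY-WT, where few of all genes were called, and 5 were called between XX-WT and XY-WT. In XY-KO against XY-WT, the authors' deposited table called 0 of the 10, higher or lower, where it called 2.27% of all genes (0.699% higher and 1.57% lower). At an unadjusted limma p under 0.05 there were 6 of 10, against 18.9% of all genes: Fgf9, Fgfr1, Etv4, Etv5 and Spry4 on the lower side and Fgfr2 on the higher side. In XX-WT against XY-WT, the authors' deposited table called 1 of the 10 higher (Fgfr2), where 10.9% of all genes were higher, and 4 lower (Fgf9, Etv5, Spry4 and Dusp6), where 12.4% of all genes were lower. In XY-KO against XX-WT, the authors' deposited table called 3 of the 10 higher (Etv5, Spry4 and Dusp6), where 9.16% of all genes were higher, and 1 lower (Fgfr2), where 9.11% of all genes were lower. The median log2 fold change of the 10 genes was -0.31 in XY-KO and -0.71 in XX-WT, each against XY-WT, with medians over all genes of -0.01 and 0.00. Both medians of the 10 genes come from comparisons that share the XY-WT samples. They shrank when the trend of fold changes with GC content and transcript length was removed. The XY-KO median then lay between -0.23 (Dusp6) and -0.16 (Fgfr1), and that of XX-WT between -0.55 (Etv4) and -0.28 (Fgfr4). Summed Sertoli cell markers (195, 21.8 and 544 CPM in the order XY-KO, XX-WT and XY-WT) were lowest in XX-WT and highest in XY-WT, as were Fgf9, Etv5, Spry4 and Dusp6. Not every Sertoli marker had this order. Of the 8, 7 were called higher in XY-KO than in XX-WT and 1, Cldn11, was called lower. Cldn11 was lowest in XY-KO, with derived values of 2.6 CPM there, 6.4 CPM in XX-WT and 16.2 CPM in XY-WT. Sox9, the deleted gene, is among these markers, so part of the fall of their sum in XY-KO is set by the design. Summed fetal Leydig markers (602, 21.3 and 612 CPM) and interstitial markers (759, 334 and 775 CPM) had the same order, but with XY-KO close to XY-WT. In XY-KO against XY-WT, 0 of 4 measured Leydig markers were called, and of 7 interstitial markers 1 was higher and 1 lower. The plot of group levels shows the 10 genes side by side.

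**Figure D1:**
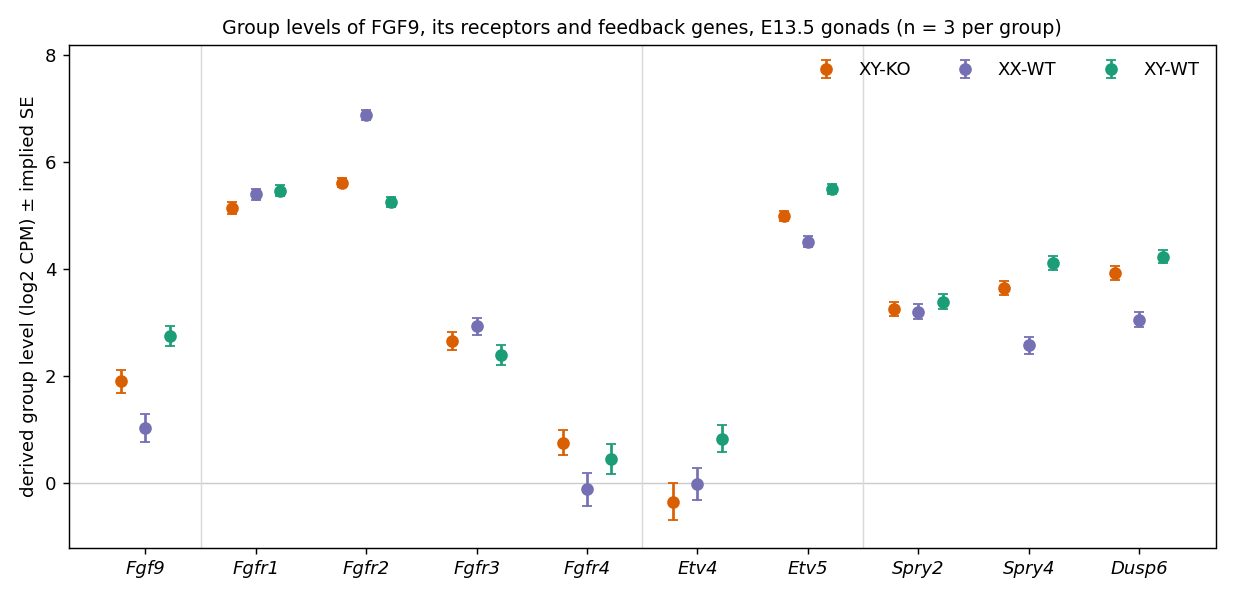
Derived group levels of the 10 genes in log2 CPM (y axis) for XY-KO, XX-WT and XY-WT gonads, with bars of ± 1 implied standard error and vertical lines between ligand, receptors, ETS factors and feedback inhibitors. Fgf9, Etv5, Spry4 and Dusp6 are lowest in XX-WT, highest in XY-WT and between them in XY-KO, and Fgfr2 has the opposite order.

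Fgf9 (ENSMUSG00000021974, chromosome 14, 58070547 to 58112720 in GRCm38, plus strand) was lower in ovary than in testis, while its lower level in Sox9-deleted testis did not pass the test. Its derived level was 1.91 ± 0.22 log2 CPM in XY-KO, 1.03 ± 0.26 in XX-WT and 2.75 ± 0.18 in XY-WT (implied SE), or 3.76, 2.05 and 6.75 CPM in that order. Its mean log2 expression, not divided by length, was at the 31.4th percentile of all genes. Fgf9 in the authors' deposited table fell by 1.72 in XX-WT against XY-WT on the log2 scale (SE 0.32, adjusted p 0.000904), a 3.29-fold lower level with a 95% interval of 2.06 to 5.26. Against XY-WT, the authors' deposited table placed Fgf9 of XY-KO at -0.84 (SE 0.28, 95% interval -1.45 to -0.24, p 0.00905 and adjusted p 0.131 by limma). With its error, a log2 difference of 1.13 would have been needed for Fgf9 to be called in that comparison. Against XX-WT, the authors' deposited table gave Fgf9 of XY-KO 0.88 (SE 0.34, 95% interval 0.15 to 1.60, adjusted p 0.0917 by limma), so Fgf9 of XY-KO was called against neither control. In bulk tissue, fewer cells of a type and less RNA per cell cannot be told apart, here and in each result that follows.

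Among the receptors, Fgfr2 was the one that differed, and it was high in ovary. Fgfr2 (ENSMUSG00000030849, chromosome 7, 130162451 to 133123350, minus strand) had a derived level of 5.62 ± 0.092 log2 CPM in XY-KO, 6.89 ± 0.086 in XX-WT and 5.26 ± 0.094 in XY-WT, which is 49.3, 118 and 38.3 CPM in that order. Fgfr2 in the authors' deposited table was 1.63 higher in XX-WT than in XY-WT on the log2 scale (SE 0.13, adjusted p 2.0e-07), a 3.09-fold difference with a 95% interval of 2.56 to 3.72, which ranked 112 among all genes by p. Fgfr2 was lower in XY-KO than in XX-WT, with the authors' deposited table giving -1.26 (SE 0.13, adjusted p 3.4e-06), a 2.40-fold lower level with a 95% interval of 1.99 to 2.89. Between XY-KO and XY-WT, the authors' deposited table gave Fgfr2 0.36 (SE 0.13, 95% interval 0.08 to 0.64, adjusted p 0.158 by limma). The Fgfr2 level of XY-KO thus lay between the controls, called against XX-WT and not against XY-WT. The summed pre-granulosa markers had the same order, at 42.0 CPM in XY-KO, 364 CPM in XX-WT and 32.7 CPM in XY-WT. Of these 7 markers 0 were called in XY-KO against XY-WT, and Foxl2 and Bmp2 had lower values in XY-KO than in XY-WT. Summed germ cell markers (345, 622 and 431 CPM in the order XY-KO, XX-WT and XY-WT) and mesonephric markers (12.1, 22.2 and 14.6 CPM) were also highest in XX-WT, but lowest in XY-KO. The part of any of these cell types in the Fgfr2 result was not tested.

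The other receptors were not called in the deposited comparisons. Fgfr1 (ENSMUSG00000031565, chromosome 8, 25513654 to 25575718) had derived levels of 5.14 ± 0.11 log2 CPM in XY-KO, 5.41 ± 0.10 in XX-WT and 5.47 ± 0.10 in XY-WT. Its log2 difference in the authors' deposited table was -0.32 in XY-KO against XY-WT (95% interval -0.64 to -0.0031, adjusted p 0.259) and -0.06 in XX-WT against XY-WT (95% interval -0.38 to 0.25, adjusted p 0.799). The sign of the second difference turned to 0.10 when the trend of fold changes with GC content and transcript length was removed, and the first became -0.16 (adjusted p 0.674). Fgfr3 (ENSMUSG00000054252, chromosome 5, 33721674 to 33737068) had derived levels of 2.66 ± 0.17, 2.94 ± 0.15 and 2.40 ± 0.18 log2 CPM in the order XY-KO, XX-WT and XY-WT. By the authors' deposited table its XX-WT difference from XY-WT was 0.54 (95% interval 0.03 to 1.05, adjusted p 0.121), and without the trend it was 0.74 and passed (adjusted p 0.037). Between XY-KO and XY-WT, the authors' deposited table gave Fgfr3 0.26 (SE 0.25, adjusted p 0.611). For XY-KO against XX-WT, the authors' deposited table gave -0.26 for Fgfr1 (SE 0.15, adjusted p 0.271) and -0.28 for Fgfr3 (SE 0.23, adjusted p 0.459). Fgfr4 (ENSMUSG00000005320, chromosome 13, 55152640 to 55168759) had the lowest levels of the receptors, at 0.77 ± 0.24, -0.11 ± 0.30 and 0.46 ± 0.28 log2 CPM in the same order. Its differences in the authors' deposited table were 0.30 in XY-KO against XY-WT (SE 0.37, adjusted p 0.700), -0.57 in XX-WT against XY-WT (SE 0.41, adjusted p 0.345) and 0.88 in XY-KO against XX-WT (SE 0.39, adjusted p 0.141). Its 95% interval in XY-KO against XY-WT ran from -0.48 to 1.08, so a 2-fold higher level in XY-KO lies inside it.

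Levels of different receptors were compared per kilobase of the longest annotated transcript. Fgfr2 stood at 11.1 CPM per kb in XY-KO, 26.7 in XX-WT and 8.65 in XY-WT. Fgfr1 stood at 7.01, 8.41 and 8.78 CPM per kb in the same order, Fgfr3 between 1.24 and 1.80, and Fgfr4 between 0.278 and 0.511. Fgfr2 thus made up 55.3% of the summed receptor level in XY-KO, 71.8% in XX-WT and 45.3% in XY-WT, and the sum itself was 20.1, 37.2 and 19.1 CPM per kb. The ratio of Fgfr2 to Fgfr1 was 1.59 in XY-KO, 3.18 in XX-WT and 0.986 in XY-WT. These shares have no test. In XY-WT the order of Fgfr1 and Fgfr2 depends on the length used: Fgfr2 was 3.11 and Fgfr1 3.13 log2 CPM per kb with the longest transcript, and 4.06 and 3.55 with the median coding transcript. Gene counts do not separate the alternatively spliced IIIb and IIIc receptor forms, which differ in the ligands they bind. Exons of other genes overlap those of 3 receptors: 1.66% of Fgfr1 exon bases lie opposite the antisense gene Gm16159, 3.04% of those of Fgfr2 are shared with Ctbp2 on the same strand, and 13.9% of those of Fgfr3 lie opposite G630022F23Rik. Whether counting used strand is not given in the sources used here.

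**Figure D2:**
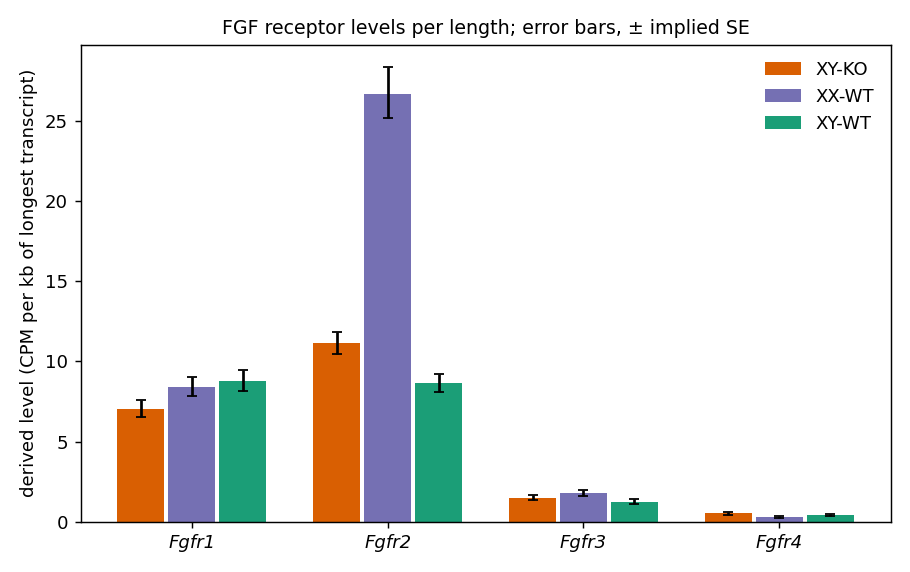
Derived levels of the 4 FGF receptors in CPM per kb of the longest transcript (y axis, from 0) in XY-KO, XX-WT and XY-WT gonads, with bars of ± 1 implied standard error. Fgfr2 stands at 26.7 in XX-WT, above 11.1 in XY-KO and 8.65 in XY-WT, while Fgfr1 lies between 7.01 and 8.78 in all groups.

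Of the ETS factors, Etv5 was lower in ovary than in testis. Etv5 (ENSMUSG00000013089, chromosome 16, 22381309 to 22439719), known in mice for its need in spermatogonial stem cell renewal, had derived levels of 5.0 ± 0.100 log2 CPM in XY-KO, 4.52 ± 0.10 in XX-WT and 5.50 ± 0.094 in XY-WT, or 32.0, 22.9 and 45.1 CPM. Etv5 in the authors' deposited table fell by 0.98 in XX-WT against XY-WT on the log2 scale (SE 0.14, adjusted p 8.91e-05), 1.97-fold with a 95% interval of 1.61 to 2.42. By the authors' deposited table it was 0.48 higher in XY-KO than in XX-WT (SE 0.14, adjusted p 0.0273), 1.40-fold with a 95% interval of 1.13 to 1.73. In XY-KO against XY-WT, the authors' deposited table gave Etv5 -0.50 (SE 0.14, 95% interval -0.79 to -0.20, p 0.00251 and adjusted p 0.0744 by limma), the smallest adjusted p of the 10 genes there. XY-KO thus lay between the controls, called against XX-WT alone, and a log2 difference of 0.55 from XY-WT was needed for a call. Adjusting the authors' p-values over the 3 comparisons together gave Etv5 an adjusted p of 0.0231 and a call in XY-KO, whereas removing the GC and length trend gave -0.40 and an adjusted p of 0.177.

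Etv4 (ENSMUSG00000017724, chromosome 11, 101769742 to 101785371) was the other ETS factor and had low levels in every group. Its derived level was -0.34 ± 0.35 log2 CPM in XY-KO, -0.01 ± 0.30 in XX-WT and 0.84 ± 0.25 in XY-WT, with a mean, not divided by length, at the 10.7th percentile of all genes. The log2 difference of XY-KO from XY-WT in the authors' deposited table was -1.18 (SE 0.43, 95% interval -2.09 to -0.27, adjusted p 0.158), the widest interval of the 10 genes in that comparison, and a difference of 1.71 was needed for a call. Taking out the GC and length trend left -0.86 (adjusted p 0.350). In XX-WT against XY-WT, the authors' deposited table gave Etv4 -0.84 (SE 0.39, 95% interval -1.67 to -0.01, adjusted p 0.135), and between XY-KO and XX-WT it gave -0.34 (SE 0.46, adjusted p 0.683).

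The feedback inhibitors split in the ovary: Spry4 and Dusp6 were lower than in testis, and Spry2 was not called. Spry4 (ENSMUSG00000024427), a Sprouty inhibitor of receptor tyrosine kinase signalling, had derived levels of 3.65 ± 0.14 log2 CPM in XY-KO, 2.58 ± 0.16 in XX-WT and 4.12 ± 0.13 in XY-WT, or 12.6, 5.98 and 17.4 CPM. Spry4 in the authors' deposited table fell by 1.54 in XX-WT against XY-WT on the log2 scale (SE 0.21, adjusted p 4.95e-05), 2.91-fold with a 95% interval of 2.14 to 3.94. By the authors' deposited table it was 1.07 higher in XY-KO than in XX-WT (SE 0.21, adjusted p 0.00193), 2.11-fold with a 95% interval of 1.54 to 2.88. For XY-KO against XY-WT, the authors' deposited table gave -0.46 (SE 0.19, 95% interval -0.86 to -0.07, adjusted p 0.195). Like Etv5, Spry4 of XY-KO was called against XX-WT and not against XY-WT.

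Dusp6 (ENSMUSG00000019960, chromosome 10, 99263231 to 99267489), the phosphatase that inactivates ERK in the cytoplasm, had derived levels of 3.93 ± 0.13 log2 CPM in XY-KO, 3.06 ± 0.14 in XX-WT and 4.24 ± 0.12 in XY-WT, or 15.3, 8.34 and 18.9 CPM. Dusp6 in the authors' deposited table fell by 1.18 in XX-WT against XY-WT on the log2 scale (SE 0.19, adjusted p 0.000235), 2.26-fold with a 95% interval of 1.72 to 2.97. By the authors' deposited table it was 0.87 higher in XY-KO than in XX-WT (SE 0.19, adjusted p 0.0039), 1.83-fold with a 95% interval of 1.38 to 2.42. Between XY-KO and XY-WT, the authors' deposited table gave Dusp6 -0.31 (SE 0.17, 95% interval -0.68 to 0.07, adjusted p 0.361). Dusp6 of XY-KO was thus called against the ovary and not against the testis. Spry2 (ENSMUSG00000022114, chromosome 14, 105891947 to 105896819) had derived levels of 3.26 ± 0.14, 3.21 ± 0.14 and 3.40 ± 0.14 log2 CPM in the order XY-KO, XX-WT and XY-WT. Its log2 differences in the authors' deposited table were -0.14 in XY-KO against XY-WT (95% interval -0.55 to 0.28, adjusted p 0.750), -0.19 in XX-WT against XY-WT (95% interval -0.60 to 0.22, adjusted p 0.529) and 0.05 in XY-KO against XX-WT (95% interval -0.37 to 0.46, adjusted p 0.899). These intervals leave room for a Spry2 difference of about the size of the value Spry4 had in XY-KO against XY-WT, but not of the size it had in XX-WT.

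**Figure D3:**
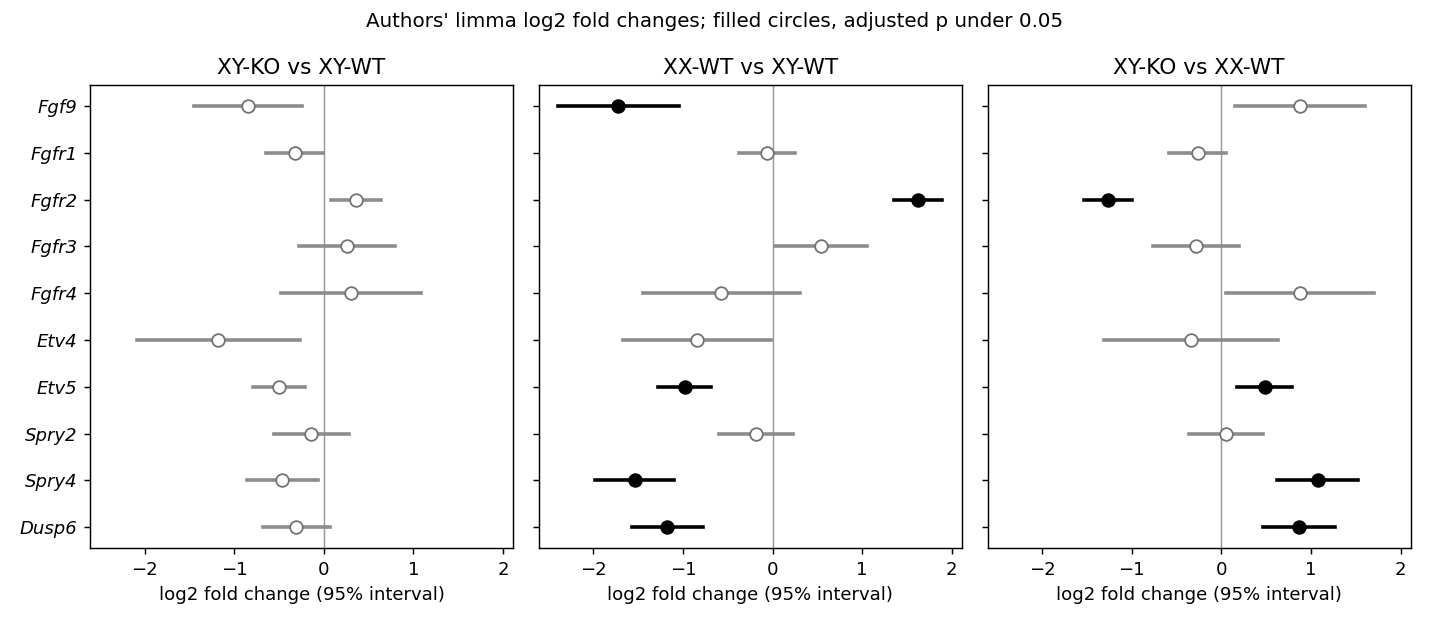
Log2 fold changes of the 10 genes from the authors' deposited tables (x axis, with 95% intervals) in XY-KO against XY-WT, XX-WT against XY-WT and XY-KO against XX-WT. Filled circles, at an adjusted p under 0.05, are absent from the first comparison and number 5 in the second and 4 in the third.

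The rest of the pathway was read from 7 lists holding 92 further genes, of which 74 were measured. In XY-KO against XY-WT, the authors' deposited table called 1 of the 74 higher, where 0.699% of all genes were higher, and 3 lower, where 1.57% of all genes were lower. There were 22 of the 74 at an unadjusted limma p under 0.05, where 18.9% of all genes were. The median log2 fold change as deposited, with the GC and length trend left in, was -0.14. Sulf1, an extracellular sulfatase that trims 6-O-sulfate groups from heparan sulfate, rose by 0.89 (SE 0.13) in the authors' deposited table, with an adjusted p of 0.000882. Fgf13, an FGF homologous factor that stays inside the cell and binds sodium channels, stood at -0.98 (SE 0.15) in the authors' deposited table, with an adjusted p of 0.00217. A pair of heparan sulfate proteoglycans were lower in the authors' deposited table, the syndecan Sdc4 at -0.74 (SE 0.18, adjusted p 0.0430) and the glypican Gpc1 at -0.78 (SE 0.19, adjusted p 0.0476). Sdc4 (adjusted p 0.0885) and Gpc1 (-0.50, adjusted p 0.236) were no longer called once the trend with GC content and length had been taken out. Over all genes in this comparison, calls were 107 higher and 240 lower as deposited, and 120 higher and 143 lower with the trend removed. The 5 other measured ligands, 12 adaptors, 13 genes of the RAS-MAPK core and 14 other feedback and target genes had 0 called in XY-KO against XY-WT, with 0, 0, 5 and 4 at an unadjusted limma p under 0.05.

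In XX-WT against XY-WT, the authors' deposited table called 9 of the 74 higher, where 10.9% of all genes were higher, and 21 lower, where 12.4% were lower, with a median of -0.25. Of the 5 other measured FGF ligands 3 were lower and none higher: the authors' deposited table gave Fgf10, a ligand of the IIIb form of FGFR2, -1.71 (SE 0.25, adjusted p 0.000118), Fgf18 -0.97 (adjusted p 0.00947) and Fgf2 -0.75 (adjusted p 0.0316). The same 3 were higher in XY-KO than in XX-WT in the authors' deposited table, at 1.54, 1.27 and 1.10, and none was called between XY-KO and XY-WT. Of 3 homologous factors, the authors' deposited table put Fgf13 at -2.06 (SE 0.18, adjusted p 4.65e-07) and Fgf11 at 0.87 (SE 0.17, adjusted p 0.0015). Of 13 co-receptors and binding proteins 2 were higher and 7 lower. Among them the authors' deposited table put Gpc1 at -1.65 (adjusted p 2.92e-05), the glypican Gpc3 at -1.45 (adjusted p 3.48e-05) and Flrt2, an adhesion protein whose family binds FGF receptors, at 1.25 (adjusted p 1.69e-05). Of 14 heparan sulfate enzymes 1 was higher and 3 lower. In the authors' deposited table Sulf1 was at 2.23 (SE 0.12, adjusted p 5.89e-09), the 6-O-sulfotransferase Hs6st2 at -0.88 (adjusted p 3.71e-05) and the chain-modifying Ndst1 at -0.92 (adjusted p 0.000991).

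The genes that act inside the cell were read in 3 further lists. None of 12 adaptors was called by limma in XX-WT against XY-WT, with 3 at an unadjusted p under 0.05. Of 13 RAS-MAPK genes 3 were higher and 2 lower in the authors' deposited table, with the ERK-activated kinase Rps6ka3 at 0.82 (adjusted p 4.95e-05), its relative Rps6ka1 at -0.81 (adjusted p 0.0214) and Map2k1, which encodes a MEK kinase, at -0.43 (adjusted p 0.0235). Rps6ka1 (adjusted p 0.100) and Map2k1 (adjusted p 0.0675) were not called with the trend removed. Of 14 other feedback and target genes 2 were higher and 5 lower. In the authors' deposited table, the nuclear ERK phosphatase Dusp4 was at -1.80 (SE 0.23, adjusted p 2.73e-05), the ETS factor Etv1 at -1.21 (SE 0.15, adjusted p 3.08e-05) and the immediate early gene Egr1 at -1.22 (SE 0.22, adjusted p 0.000706). All 3 were higher in XY-KO than in XX-WT in the authors' deposited table, Dusp4 by 1.26, Etv1 by 0.85 and Egr1 by 1.26. The feedback list was nevertheless mixed: Dusp5, another nuclear ERK phosphatase, stood at 1.36 in XX-WT in the authors' deposited table (adjusted p 0.00401) and was named after its value was seen. The median of that list as deposited was -0.29 in XX-WT and -0.30 in XY-KO, each against XY-WT, where 0 of the 14 were called in XY-KO. This likeness depended on the GC and length trend. With the trend removed, the XY-KO median lay between -0.15 (Ccnd1) and -0.11 (Il17rd). That of XX-WT lay between -0.32 (Il17rd) and -0.23 (Dusp7). In XY-KO against XX-WT, the authors' deposited table called 13 of the 74 pathway genes higher, where 9.16% of all genes were higher, and 9 lower, where 9.11% were lower, with a median of 0.06.

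**Figure D4:**
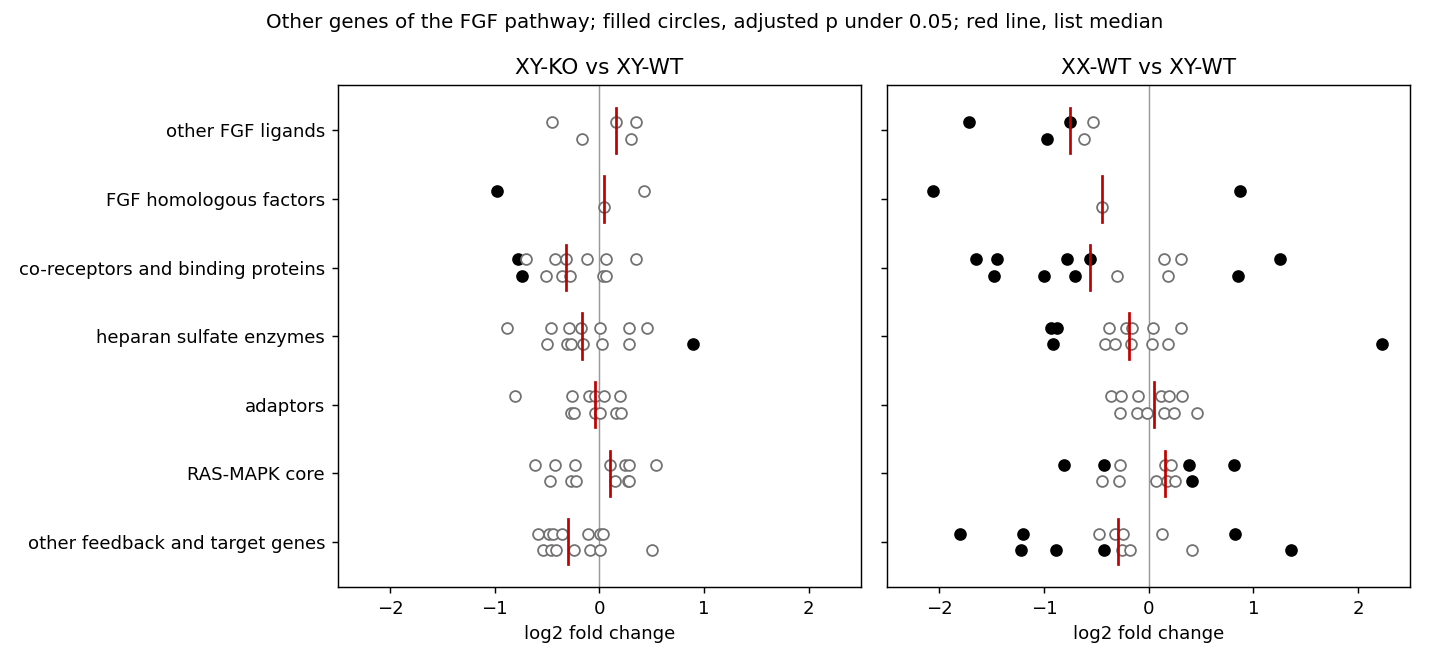
Log2 fold changes (x axis) of 74 other FGF pathway genes in 7 lists (rows) for XY-KO against XY-WT and XX-WT against XY-WT, where each circle is a gene, filled at an adjusted p under 0.05, and the red line is the list median. The first panel holds 4 filled circles and the second 30.

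Genes of the FGF9 and WNT4 antagonism were read beside the FGF genes. They were listed for their part in sex determination, with earlier results of these data known. Counts of calls among them are therefore descriptions and no test. Of 10 measured, 3 were lower and none higher in XY-KO than in XY-WT, where 1.57% of all genes were lower and 0.699% higher. All 3 are also among the Sertoli markers read above, and Sox9 is the deleted gene itself. The authors' deposited table gave Sox9 as above, Amh, which encodes anti-Müllerian hormone, -2.06 (SE 0.20, adjusted p 5.42e-05), and Ptgds, a prostaglandin D synthase, -1.51 (SE 0.28, adjusted p 0.00719). Wnt4, the ovarian signal that FGF9 opposes, was named after its value was seen and stood at 0.12 (SE 0.21, adjusted p 0.792) in XY-KO and at 2.23 (SE 0.19, adjusted p 3.98e-07) in XX-WT, each against XY-WT in the authors' deposited table. Of the 10, 5 were higher and 4 lower in XX-WT than in XY-WT, where 10.9% of all genes were higher and 12.4% lower. In the authors' deposited table, Fst, an activin-binding protein, was at 7.27 (SE 0.31, adjusted p 5.39e-10) and Cyp26b1, which degrades retinoic acid, at -5.34 (SE 0.21, adjusted p 3.92e-10) there. In XY-KO against XY-WT, Sox9 was 6.78-fold lower with a 95% interval of 5.26 to 8.75, while the 95% interval for Fgf9 in the same comparison ran from 1.18-fold to 2.72-fold lower.

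The genes whose pattern over the 3 groups was most like that of Fgf9 were found by the distance between the pairs of log2 fold changes of XY-KO and XX-WT, each against XY-WT, among 7344 named genes at or above median expression. They were the ubiquitin ligase gene Rnf181 (distance 0.069), the forkhead gene Foxp4 (0.093), Gpc1 (0.097), Bex2 (0.099) and Eps8 (0.144), which encodes an actin regulator. Gpc1 is the one that also belongs to the FGF lists. In the authors' deposited table these 5 stood between -0.93 and -0.75 in XY-KO and between -1.83 and -1.65 in XX-WT, and all were called in both. Fgf9 itself, which lies below the median expression asked of these genes, was not called in XY-KO. With no limit on expression the nearest genes included Tmc7 (adjusted p 0.0855 in XY-KO) and Kcnq3 (adjusted p 0.0629), which the authors' deposited table did not call in XY-KO either. With 3 groups such a likeness rests on a pair of numbers, and it is a description with no test.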

How the data were processed

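RNA-seq was compared in 9 E13.5 mouse gonad samples, 3 per group. Per the labels, RNA was amplified by the SPIA method and libraries were read in pairs of 150 nt, with a stated 50000000 reads per sample. The submitters' processing notes name limma 3.24.0, HTSeq 0.6.1p1, TopHat2 2.0.8 and Trimmomatic 0.30, with the GRCm38 build. The authors deposited 3 tables, 1 per comparison of groups, over the same 15300 genes. Each holds log2 fold changes and mean log2 expression as the authors' values, the authors' limma t and B scores, and, per the file headers, p-values and Benjamini-Hochberg adjusted p-values. Which genes were filtered out before the tables were made is not given in the sources used here. No per-sample values were used, so the count behind each value is unknown, no counting interval was computed and no model was refitted.

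The 3 fold changes of a gene added up within 0.005, and t gave p at 15.27 degrees of freedom in every table, which sets the 95% intervals. As 9 samples in 3 groups leave 6 residual degrees of freedom, the rest came from variance that limma shares across genes. SE is the fold change divided by t. Levels assume equal weight of the groups. Symbols came from the gene name table (15192 IDs matched), lengths and exons from GENCODE M21, promoters from RefSeq (7 of the 10 genes matched). The GC and length trend was a robust polynomial of degree 3. Calculations used Python 3.11.15 with statsmodels 0.14.6, scipy 1.17.1 and pandas 2.3.3, and were tested on simulated data with limma 3.58.1 in R 4.3.3.

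The 10 genes and the lists were chosen with earlier results of these data known. Named were the 10 genes, Sox9, each list gene called in XY-KO against XY-WT, up to 3 called genes per list with the smallest adjusted p in XX-WT against XY-WT, and the 5 genes nearest Fgf9. Listed genes outside the tables (12 ligands, Fgf14, Klb, Kl, Fgfbp1, Spry3, Dusp2, Sry, Nanos2, Dnmt3l and Insl3) were not analysed here. Alternatives were other adjustments, a stricter threshold, a fold limit, centring, the GC and length trend, other lengths, other distances and a shorter promoter window.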

Additional observations from a re-analysis of the deposited data

How the results depend on the processing

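No paired analysis was possible because the tables hold no per-sample columns, and for the same reason no replicate could be left out. Of 168 repeats over the fold changes of the 10 genes, 158 kept direction and side of the threshold, 7 lost a call, 2 gained one and 1 turned: Fgfr1 in XX-WT against XY-WT, at 0.10 with the GC and length trend removed against -0.06. Centring on the median of all genes changed no call among the 10. Fgf9, Fgfr3, Fgfr4 and Etv4 lie below median expression and have no value where the adjustment was made over the more expressed genes. Of the 10 genes, 1 was lower in XY-KO than in XY-WT (Etv5) with the adjustment over the 3 comparisons together. By Bonferroni adjustment 1 was lower in XX-WT than in XY-WT and 0 were higher in XY-KO than in XX-WT. With the trend removed 2 were higher in XX-WT than in XY-WT, and with a limit of 2-fold 1 was higher in XY-KO than in XX-WT. Of the 74 pathway genes in XY-KO against XY-WT, 2 were higher and 8 lower with the adjustment over the 3 comparisons together, 0 lower by Bonferroni, 1 lower with the trend removed, 1 lower at an adjusted p under 0.01, and 0 higher and 0 lower with the 2-fold limit. In XX-WT against XY-WT they were 3 higher and 6 lower by Bonferroni, and 3 higher and 9 lower with the 2-fold limit. In that comparison they were 8 higher and 15 lower with the trend removed, and 6 higher and 14 lower at an adjusted p under 0.01. In XY-KO against XX-WT they were 8 higher over genes at or above median expression, 1 higher and 2 lower by Bonferroni, and 5 lower with the 2-fold limit. For the trend the cause was not tested. The count over genes at or above median expression leaves out the genes below it, among them Fgf2, Fgf10, Fgf18, Fgfrl1 and Dusp4. Of the 5 genes nearest Fgf9, 4 stayed with differences divided by their SE and 2 with genes of any expression. In the 100 bases before the start of first listed promoters, the count of promoters with ACAAT was 0 of 7, that with ACAAAG was 0 and that with CCGGAA was 0. The depth reached in each sample was unknown, and Fgfr4 and Etv4 had the largest errors of the 10 genes.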
